A study of Mus musculus with 3 samples.

Results

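The genes described here are 9 transcription factors linked to the vessels of particular organs: the homeobox genes *Meox1*, *Meox2*, *Nkx2-3*, *Irx1*, *Irx2*, *Irx3* and *Irx5*, the basic helix-loop-helix gene *Tcf15* and the zinc finger gene *Prdm1*. They were chosen by gene symbol, and all 9 have a row among the 24346 genes of the deposited table. The values come from 3 bulk RNA-seq libraries of adult lung endothelial cells (ECs), called S38, S44 and S52, which form 1 group. The mice were wild type C57BL/6J, and by the study's methods they were males of 6 to 8 weeks that received an antibody to VE-cadherin into the circulation before death. Cells were sorted without culture as CD31-positive, CD45-negative and Podoplanin-negative. Whether the libraries came from separate animals is not given in the sources used here, so the spread between them may be technical in part. No other organ, stage or treatment was analysed here, so levels are described within lung ECs and no organ was compared with another.

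ECs of different organs share a common program and add factors that are restricted to some vascular beds. *Meox2* and *Tcf15* are known from the capillaries of heart and skeletal muscle, where they act as partners and promote uptake of fatty acids, and the Meox genes take their name from the embryonic mesenchyme. *Nkx2-3* is known from the vessels of spleen and gut, where it is needed for the homing receptor gene *Madcam1*. *Prdm1* encodes Blimp-1, a repressor best known from plasma cells and also studied in glomerular capillaries. The Iroquois (Irx) genes encode homeodomain proteins with a 3-residue loop extension and lie in clusters, and in the lung they are known from the developing epithelium and mesenchyme.

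Sequence matters for these genes first because paralogues can share reads. Every 51-base window, the read length, of the GENCODE M21 transcripts (GRCm38) of the 9 genes was looked up in the transcripts of all other genes on both strands. For 6 genes, among them *Meox1*, *Meox2*, *Prdm1* and *Nkx2-3*, no window recurred elsewhere. *Irx2* and *Irx5* shared 15 windows, 0.451% of those of *Irx2* and 0.487% of those of *Irx5*. They come from a single run of 65 identical coding bases in exon 2 of each gene, at chr13:72630733-72630797 (plus strand) for *Irx2* and chr8:92359696-92359760 (plus strand) for *Irx5*. The stretch is shown here with the matching bases of *Irx1* (chr13:71960047-71960111, minus strand, exon 2) and *Irx3* (chr8:91800551-91800615, minus strand, exon 2), and capitals mark the bases that differ from *Irx2*.
Irx2: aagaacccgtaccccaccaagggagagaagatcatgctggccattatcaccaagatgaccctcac
Irx5: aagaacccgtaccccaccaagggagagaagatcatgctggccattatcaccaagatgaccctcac
Irx1: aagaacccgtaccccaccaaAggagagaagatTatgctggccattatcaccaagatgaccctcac
Irx3: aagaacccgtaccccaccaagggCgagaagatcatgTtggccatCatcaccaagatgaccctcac
*Irx1* differed from *Irx2* at 2 of the 65 bases and *Irx3* at 3. *Irx3* also shared 38 windows with *Irx6* of the same cluster, from a run of 88 bases, and 74 windows with the antisense gene *Irx3os*, whose exons overlap 124 bases of the *Irx3* exons. The libraries do not keep strand, so reads of *Irx3* and *Irx3os* from these bases cannot be told apart, and the value of *Irx3* is the least certain of the 9 in this respect, with 4.06% of its windows shared.

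The Meox genes are more distant. Their most alike coding stretch of the same length, in exon 2 of each gene, differed at 13 of 65 bases, marked by capitals, so an exact read of this stretch belongs to 1 gene only. It lies at chr11:101879286-101879350 (minus strand) in *Meox1* and at chr12:37167399-37167463 (plus strand) in *Meox2*.
Meox1: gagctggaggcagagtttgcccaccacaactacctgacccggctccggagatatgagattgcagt
Meox2: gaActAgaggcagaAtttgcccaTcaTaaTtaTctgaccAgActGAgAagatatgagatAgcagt

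RefSeq promoter windows (GRCm38.p6) were held for 5 of the 9 genes, *Irx2*, *Irx3*, *Meox2*, *Nkx2-3* and *Prdm1*. In the 250 bases before the start they held 12 to 19 CG dinucleotides, against a median of 6 over 32851 windows of the same length and of 15 over 146 windows of homeobox genes outside the Hox clusters. The windows of *Meox2* and *Nkx2-3* are shown because *Meox2* had the largest ratio between libraries of the genes above 0 in each and *Nkx2-3* had no value above 0, and capitals mark the CG dinucleotides. They lie at chr12:37108290-37108539 and chr19:43612075-43612324, both on the plus strand.
Meox2: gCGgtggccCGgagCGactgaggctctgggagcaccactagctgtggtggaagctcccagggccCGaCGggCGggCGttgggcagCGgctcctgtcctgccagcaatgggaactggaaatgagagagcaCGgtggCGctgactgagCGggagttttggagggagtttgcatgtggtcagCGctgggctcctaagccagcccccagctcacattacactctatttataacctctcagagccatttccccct
Nkx2-3: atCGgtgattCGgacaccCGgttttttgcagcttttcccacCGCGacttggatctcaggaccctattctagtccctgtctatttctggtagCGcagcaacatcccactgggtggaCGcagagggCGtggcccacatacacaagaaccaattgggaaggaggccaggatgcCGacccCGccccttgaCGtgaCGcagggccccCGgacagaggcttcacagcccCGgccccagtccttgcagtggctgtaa
The *Meox2* window holds 12 CG dinucleotides and that of *Nkx2-3* 14. The letters TATAAA, searched on both strands, occur in the window of *Meox2* and in none of the other 4 windows, and in 12.4% of all windows. CCAAT, searched in the same way, occurs in those of *Irx2*, *Nkx2-3* and *Prdm1* and in 33.9% of all windows. These matches describe the letters only.

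The 9 genes spanned the range from a clear signal to none. Levels are given as FPKM, fragment counts scaled to transcript length and library size, which can be set side by side between genes because they are per length. Wherever 3 values follow each other without library names, they stand in the order S38, S44, S52. *Meox1* was the highest and *Prdm1* the second in each library, and neither overlapped the gene below it in any library. Below them *Meox2*, *Irx1*, *Irx2*, *Tcf15*, *Irx3* and *Irx5* followed with library values that overlapped between neighbours in this order, and *Nkx2-3* was listed at 0 throughout. A mean of 1 FPKM or more was reached by 5 of the 9 genes (*Meox1*, *Prdm1*, *Meox2*, *Irx1* and *Irx2*), close to the share of all genes in the table, 48.3%. Without S38 the number was 3, with *Irx1* and *Irx2* lost, and only *Meox1* and *Prdm1* were at 1 FPKM or above in all 3 libraries. The median of the means was 1.12 FPKM for the 9 genes and 0.784 FPKM for all genes.

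**Figure D1:**
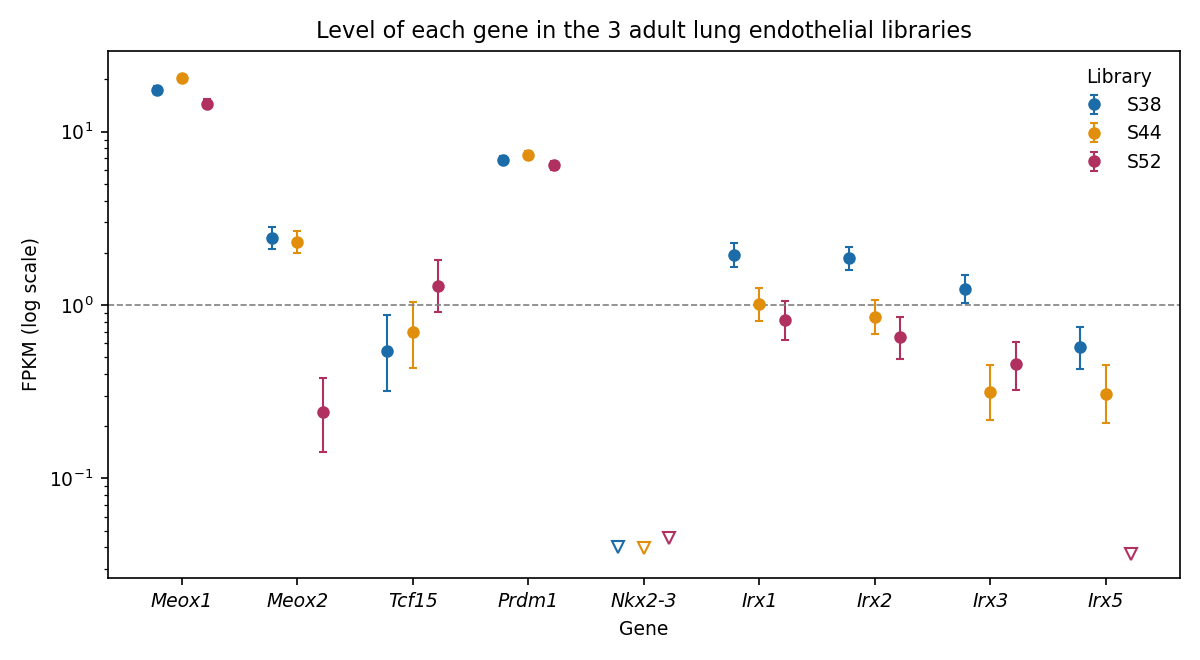
FPKM (log axis) of the 9 genes in S38, S44 and S52, with bars for the 95% counting interval of the estimated fragments and a dashed line at 1 FPKM. Open triangles stand for values listed at 0, drawn at the level of 3 fragments; *Meox2* in S52 lies at 0.241 FPKM, far below its other points at 2.31 and 2.44.

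The sort and the libraries were checked on marker genes. *Pecam1*, which encodes CD31, was between 1125 and 1216 FPKM, and the 10 endothelial genes listed were at 43.1 FPKM (*Erg*) or above in each library. *Prox1*, the lymphatic regulator, was at 0.132 to 0.598 FPKM. Other lymphatic genes were higher, with *Lyve1* at 390 to 597 FPKM and *Flt4* at 19.8 to 23.8 FPKM, and *Mmrn1* and *Ccl21a* are given below. *Ptprc*, which encodes CD45, was at 4.30, 2.06 and 0.434 FPKM and *Pdpn*, which encodes Podoplanin, at 2.39, 1.84 and 3.09 FPKM. Genes of other lung cells were present as well, led by *Sftpc* of alveolar type 2 cells at 658 to 3333 FPKM. The number of fragments per library is not part of the table and was estimated from the steps between low values, which gave 38000000 in S38, 38900000 in S44 and 34500000 in S52. Estimated fragments of a gene and their 95% intervals (exact Poisson) rest on these numbers and on a transcript length, and they cover counting error only. Fewer cells that express a gene and less RNA per cell cannot be told apart in bulk samples.

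*Meox1*, on chromosome 11 (101877510 to 101894374, minus strand, 3 exons), was at 17.4, 20.3 and 14.5 FPKM, which gives 17.4 ± 2.88 FPKM (SD, n = 3). S44 was the highest library and S52 the lowest, and the mean was above that of 82.0% of all genes. At an estimated 1025 to 1631 fragments per library its counting error was small, and the intervals of S44 and S52, 19.3 to 21.3 FPKM and 13.6 to 15.4 FPKM, did not overlap.

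*Meox2*, on chromosome 12 (37108540 to 37179534, plus strand, 3 exons), was lower than its paralogue and less even between libraries. It was at 2.44, 2.31 and 0.241 FPKM, with a mean of 1.66 ± 1.23 FPKM (SD, n = 3). S38 and S44 were close to each other, and S52 was lower than these by 10.1-fold and 9.59-fold. An estimated 204, 198 and 18 fragments stand behind these values, and the interval of S52, 0.142 to 0.378 FPKM, did not overlap that of S38, 2.12 to 2.80 FPKM, or that of S44, which ended at 2.66 FPKM. Among the 5 genes with a mean of 1 FPKM or more it was the only one more than 5-fold below both other libraries in S52, where 2.85% of all genes with such a mean were. On the log2(FPKM + 1) scale *Meox2* minus *Meox1* was -2.91 ± 0.64 (SD, n = 3), with *Meox2* the lower in 3 of 3 libraries.

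With 3 libraries the two-sided exact sign-flip permutation test used for such differences within a library cannot give a p below 0.25, and this was the p for *Meox2* against *Meox1* (adjusted over 5 comparisons, 0.312). The difference was widest in S52, from -2.42 in S38 and -2.68 in S44 to -3.64 in S52.

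*Tcf15*, on chromosome 2 (152143561 to 152149097, plus strand, 2 exons), was lowest in S38 and highest in S52, where *Meox2* had the opposite order. It was at 0.543, 0.700 and 1.29 FPKM, with a mean of 0.845 ± 0.395 FPKM (SD, n = 3), the only one of the 9 genes with its highest value in S52. Its transcript of 980 bases yielded few fragments, an estimated 17, 22 and 36, and the intervals of S38 and S52 ended at 0.874 FPKM and began at 0.914 FPKM, without overlap, while those of S44 and S52 overlapped. *Meox2* was the higher of these partners in S38 and S44 and the lower in S52, with a mean difference of 0.41 ± 1.13 on the log2(FPKM + 1) scale (SD, n = 3; exact sign-flip permutation test, p = 0.5, adjusted 0.5). Without S52 this difference was 1.06 and without S38 it was 0.039.

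Genes tied to this pair were described from lists. The E proteins, with which factors such as Tcf15 pair to bind DNA, were all present: *Tcf4* was at 36.9 ± 1.64 FPKM, *Tcf12* at 28.3 ± 4.91 FPKM and *Tcf3* at 17.5 ± 1.04 FPKM (SD, n = 3 for each), all above *Tcf15* in each library. Their inhibitors *Id1* and *Id3* were higher still, at 146 to 177 FPKM and 230 to 271 FPKM. All 9 genes of fatty acid uptake had a mean of 1 FPKM or more, against 48.3% of all genes. The list was chosen with earlier results of these data known. *Cd36*, the fatty acid translocase, was at 1505, 1517 and 1507 FPKM. *Fabp4*, an intracellular carrier, was at 153, 70.2 and 24.0 FPKM, and *Lpl*, the lipase at the capillary wall, was at 81.6, 66.7 and 37.9 FPKM. *Gpihbp1*, which anchors this lipase, was at 661, 663 and 886 FPKM. In all, 5 of the 9 genes were lowest in S52 and 2 highest, *Gpihbp1* and *Slc27a3*. Of all genes with a mean of 1 FPKM or more, 46.3% were lowest in S52. Whether these genes depend on *Meox2* or *Tcf15* was not tested. Of the 4 cell cycle inhibitors listed for their link to Meox proteins, *Cdkn1a* was the highest at 504 to 686 FPKM, and *Cdkn2a* was at 0.872, 6.07 and 2.90 FPKM.

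*Prdm1*, on chromosome 10 (44437177 to 44528501, minus strand, 8 exons in its longest basic transcript), was the steadiest of the genes above 0. It was at 6.86, 7.34 and 6.41 FPKM, with a mean of 6.87 ± 0.468 FPKM (SD, n = 3), from an estimated 1128 to 1463 fragments per library. The counting interval of S38 overlapped those of S44 and S52, and these did not overlap each other. In its family of PR domain proteins, 9 of 14 genes had a mean of 1 FPKM or more, against 48.3% of all genes. *Prdm1* ranked 3 in it, below *Prdm2* at 19.2 ± 2.18 FPKM and *Prdm4* at 16.4 ± 4.05 FPKM (SD, n = 3 for each). *Prdm12* and *Prdm13* were listed at 0 in all 3 libraries.

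Because *Prdm1* marks plasma cells, the genes of that lineage were set beside it. *Jchain*, the joining chain of secreted antibodies, was at 3.63, 0.935 and 3.19 FPKM, lowest in S44, and *Sdc1*, a surface marker of these cells, at 7.59, 4.71 and 1.29 FPKM, lowest in S52. *Tnfrsf17* was listed at 0 in all 3. The 6 genes together summed to 101 to 118 FPKM, most of it *Xbp1* at 94.1 to 103.8 FPKM, which is also a gene of the general secretory pathway. Of 6 genes that Prdm1 is known to repress in lymphocytes, 4 had a mean of 1 FPKM or more, against 48.3% of all genes. *Id3* was the highest, and *Ciita*, the regulator of MHC class II genes, was at 6.35, 11.4 and 4.19 FPKM, while *Bcl6* was at 6.48, 6.56 and 7.44 FPKM.

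*Nkx2-3*, on chromosome 19 (43612325 to 43615892, plus strand, 2 exons), was listed at 0 in S38, S44 and S52. At the estimated depths this limits its level to 0.0404, 0.0395 and 0.0450 FPKM, the value of 3 fragments in each library. *Madcam1*, the homing receptor gene tied to it, was listed at 0 in S38 and S52 and at 0.0203 FPKM in S44, and *Tlx1*, a spleen homeobox gene, was listed at 0 in all 3. The NK2 family held 1 gene at 1 FPKM or above out of 7. This was *Nkx2-1*, a regulator of lung epithelium, at 1.75, 1.25 and 0.767 FPKM, and 5 genes of the family, *Nkx2-3* and *Nkx2-5* among them, were listed at 0 throughout.

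The 4 Iroquois genes lie in pairs, *Irx1* (71957921 to 71963723, minus strand) and *Irx2* (72628820 to 72634198, plus strand) 665 kb apart on chromosome 13, and *Irx3* (91798525 to 91802067, minus strand) and *Irx5* (92357625 to 92376286, plus strand) 556 kb apart on chromosome 8. Each had its highest value in S38, though for *Irx5* the counting intervals of S38 and S44 overlapped. The share of all genes highest in S38 was not computed, so this is not read as a trait of the family. *Irx1* was at 1.95, 1.01 and 0.818 FPKM, and *Irx2* was close to it at 1.86, 0.855 and 0.650 FPKM. The means were 1.26 ± 0.605 FPKM and 1.12 ± 0.647 FPKM (SD, n = 3 for each). Within each library the counting intervals of *Irx1* and *Irx2* overlapped. *Irx1* was the higher in 3 of 3 libraries by 0.10 ± 0.050 on the log2(FPKM + 1) scale (SD, n = 3; exact sign-flip permutation test, p = 0.25, the smallest possible, adjusted 0.312).

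*Irx3* was at 1.24, 0.315 and 0.456 FPKM, from an estimated 122, 32 and 40 fragments, with a mean of 0.669 ± 0.496 FPKM (SD, n = 3). S38 was apart from the others, whose intervals overlapped. *Irx5* was at 0.574 and 0.308 FPKM in the first pair of libraries and listed at 0 in S52, where 3 fragments would be 0.0367 FPKM. *Irx3* and *Irx5* were at about the same level in S44 and differed in S38 and S52, and the mean difference was 0.35 ± 0.30 on the log2(FPKM + 1) scale (SD, n = 3; exact sign-flip permutation test, p = 0.25, adjusted 0.312). Because *Irx5* was listed at 0 in S52, this difference was 2.22 ± 2.92 (SD, n = 3) with a pseudocount of 0.01. Taken as pairs, *Irx1* and *Irx2* summed to 3.81, 1.86 and 1.47 FPKM and *Irx3* and *Irx5* to 1.81, 0.623 and 0.456 FPKM. The chromosome 8 pair was the lower in 3 of 3 libraries, with a difference of -0.78 ± 0.030 on the log2(sum + 1) scale (SD, n = 3; exact sign-flip permutation test, p = 0.25, adjusted 0.312). With a pseudocount of 0.01 it was -1.43 ± 0.32 (SD, n = 3), so the small SD depends on the pseudocount of 1.

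No signal was listed for the rest of each cluster. *Irx4*, the further gene of the chromosome 13 cluster, and *Irx6*, that of the chromosome 8 cluster, were listed at 0 in all 3 libraries, and since *Irx6* shares read-length windows with *Irx3* its reads and those of *Irx3* cannot be wholly separated. *Mkx*, a relative outside the clusters, was at 0.0605, 0.0672 and 0.299 FPKM. *Crnde*, a noncoding gene on the opposite strand within 5000 bp of *Irx5*, was at 1.54, 0.720 and 0.0541 FPKM.

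**Figure D2:**
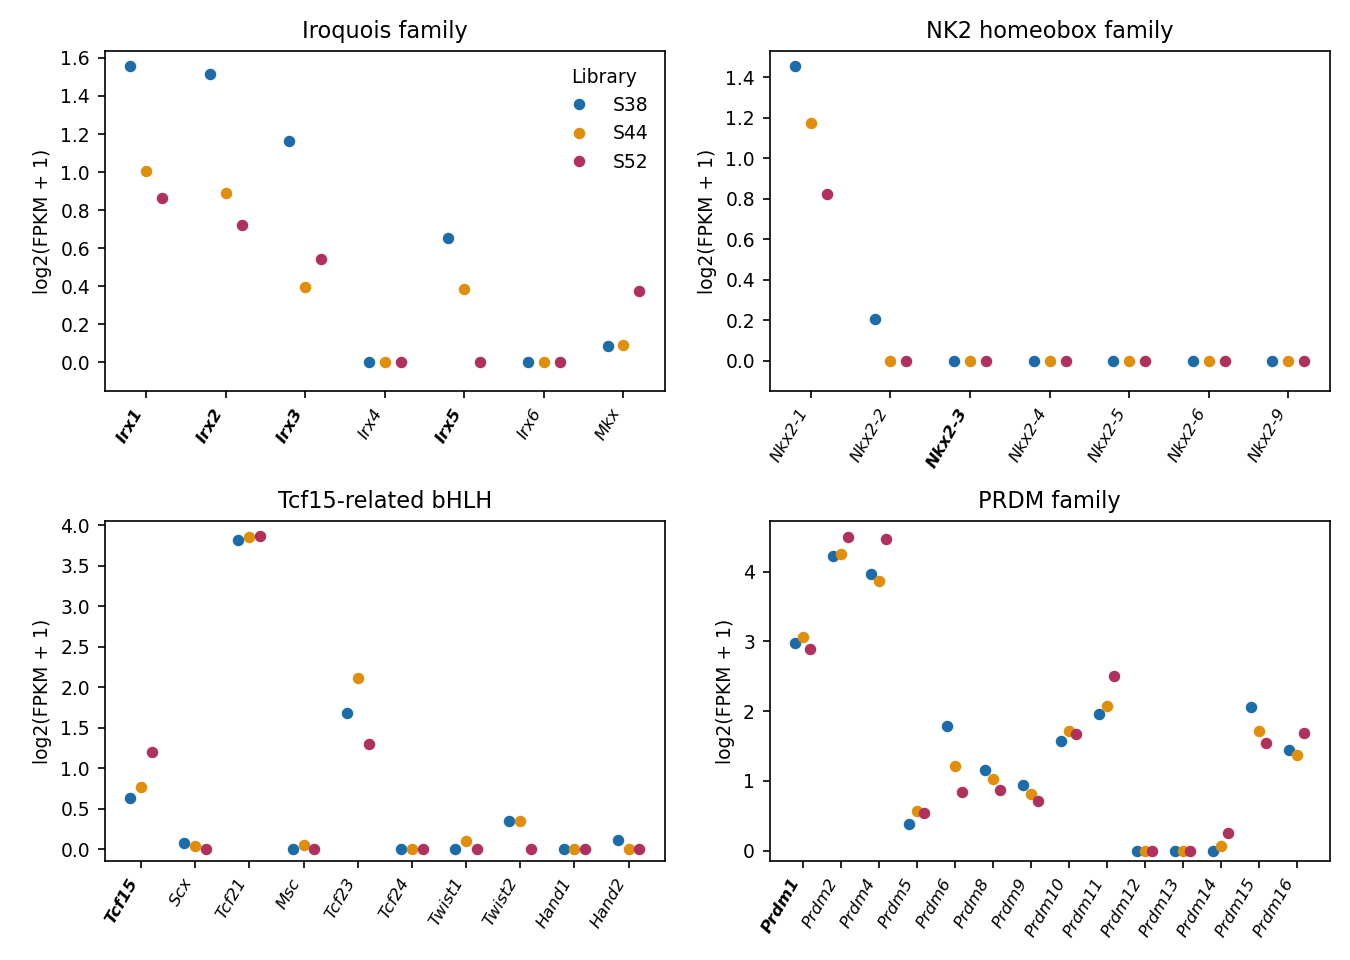
Each panel plots log2(FPKM + 1) of the genes of 1 family in S38, S44 and S52, with *Irx1*, *Irx2*, *Irx3*, *Irx5*, *Nkx2-3*, *Tcf15* and *Prdm1* in bold; the axes differ between panels. *Nkx2-3* and 4 relatives lie at 0, *Tcf21* stands at 13.4 FPKM on average above *Tcf15*, and the highest Iroquois points are *Irx1* and *Irx2* in S38.

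*Tcf15* was low among its relatives too. Of the 10 helix-loop-helix genes of its group, itself included, only *Tcf21* and *Tcf23* were at 1 FPKM or above. *Tcf21*, a gene of lung fibroblasts, was at 13.4 ± 0.245 FPKM and *Tcf23* at 2.33 ± 0.953 FPKM (SD, n = 3 for each). *Hand1* and *Tcf24* were listed at 0 in all 3 libraries.

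The place of the 7 homeobox genes was read against 167 homeobox genes outside the Hox clusters that have a row in the table. Of these, 39 genes (23.4%) had a mean of at least 1 FPKM and 73 were listed at 0 in all 3 libraries, and 4 of the 7 genes were among the 39. *Meox1* ranked 13 of 167, *Meox2* 31, *Irx1* 35, *Irx2* 38, *Irx3* 43 and *Irx5* 50. The genes at the top were *Hopx*, which alveolar type 1 cells also express, at 276 ± 67.6 FPKM, *Cers2*, a ceramide synthase with a homeobox-like domain, at 98.0 FPKM and *Meis1*, a cofactor of other homeodomain proteins, at 44.3 ± 7.74 FPKM (SD, n = 3). All 10 Groucho and HDAC corepressor genes listed had a mean of 1 FPKM or more, against 48.3% of all genes.

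**Figure D3:**
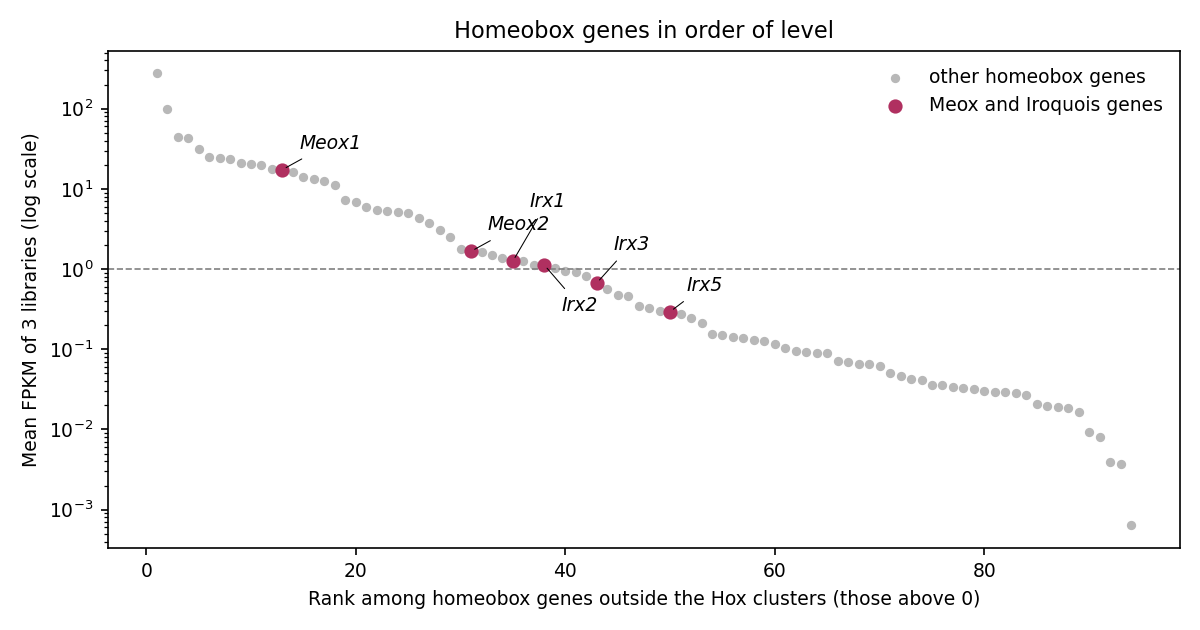
Mean FPKM of the 3 libraries (log axis) against rank for the homeobox genes outside the Hox clusters with a mean above 0; red points are *Meox1*, *Meox2* and the Iroquois genes, and the dashed line is 1 FPKM. *Meox1* sits at rank 13, *Meox2* to *Irx2* lie just above the line, and *Irx3* and *Irx5* lie below it.

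Factors linked to the vessels of other organs gave a scale for these levels. In the lung list all 6 genes were at 1 FPKM or above, led by *Foxf1* at 297 ± 43.5 FPKM (SD, n = 3), and each of *Foxf1*, *Tbx2* and *Tbx3* was above *Meox1* in each library. In the heart list 2 of 5 genes were, *Nfatc1* at 10.9 to 19.8 FPKM and *Meox2*. Of the genes linked to kidney, *Tbx3* and *Prdm1* were above this level, while *Irx3* and *Gata5* were below it. In the liver list 1 of 5 was, in the brain list 2 of 6, and in the list for spleen and gut none of 3. Of all genes in the table, 48.3% had a mean of 1 FPKM or more. The lists are short and were chosen with earlier results of these data known, so their counts do not compare organs.

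The libraries differed in ways that touch these genes. All 5 genes with a mean of 1 FPKM or more were lowest in S52, which held for 46.3% of all such genes. The same 5 genes were lowest in S52 after each rescaling tried, although with each library rescaled to a sum of 1000000 the means of *Irx1* and *Irx2* were 0.964 and 0.868 FPKM. A ratio above 2 between the highest and the lowest library was found for 3 of the 5 genes (*Meox2*, *Irx1* and *Irx2*), against 20.1% of all such genes. With each library rescaled to a sum of 1000000, and the threshold on the mean applied again, the number was 1. Without S38 it was found for 1 gene, *Meox2*, and without S52 also for 1 gene, *Irx2*.

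Markers of other cells differed between the libraries as well. The 4 platelet genes summed to 1692, 1345 and 38 FPKM, and in S52 all 4 were more than 5-fold below both other libraries, as *Meox2* was. The 7 alveolar type 2 genes summed to 3833, 3217 and 779 FPKM, with all 7 lowest in S52 and 6 of 7 in the order S38, S44, S52 that *Meox2*, *Irx1*, *Irx2*, *Irx5* and *Nkx2-1* also had. The 5 airway genes, at 2786, 2314 and 408 FPKM in sum, all had that order. So did all 4 platelet genes, 4 of 6 leukocyte genes, and 3 of 6 genes in each of the aerocyte and fibroblast lists described below. It was found for 1 of 10 endothelial genes and 0 of 7 general capillary genes. The share of all genes with that order was not computed. The counting intervals of S38 and S44 overlapped for *Meox2* and *Irx5*, and those of S44 and S52 for *Irx1* and *Irx2*. The full order was thus not resolved for these genes, and it does not tie them to any list. The 6 leukocyte genes summed to 1087, 814 and 176 FPKM, all lowest in S52, and most of this was *Lyz2* at 1047, 780 and 166 FPKM. This sum follows 1 gene and is not read as an amount of leukocytes, as *Ptprc* was at 4.30, 2.06 and 0.434 FPKM. The 6 lymphatic genes summed to 594, 651 and 414 FPKM, most of it *Lyve1* at 539, 597 and 390 FPKM. Of the lymphatic genes 4 were lowest in S52, with *Mmrn1* at 19.4, 17.6 and 0.236 FPKM and *Ccl21a* listed at 0 there, and 2 were highest in S52, *Prox1* at 0.132, 0.173 and 0.598 FPKM and *Pdpn*. *Mmrn1* was 82.1-fold lower in S52 than in S38, within the 15.7-fold to 87.4-fold of the 4 platelet genes. As the list moved in both directions, its sum is not read as an amount of lymphatic cells. The 4 mesothelial genes summed to 2.34, 6.14 and 0 FPKM, and *Msln* was listed at 0 in S52.

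Lists of blood vessel ECs and of cells around them were mixed in direction. The 10 endothelial genes summed to 6369, 7058 and 6291 FPKM, with 3 of 10 lowest in S52. Those of general capillary ECs summed to 2470, 2797 and 3086 FPKM, whereas the 6 genes of aerocytes, the other capillary type of the lung, summed to 1846, 1921 and 1279 FPKM and were all lowest in S52. The 6 mural genes, at 201, 121 and 190 FPKM in sum, had none lowest in S52, and 3 of 6 fibroblast genes, at 90.0, 72.6 and 56.9 FPKM, were lowest there. The part of these cells in the values of *Meox2* and the Iroquois genes was not tested.

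**Figure D4:**
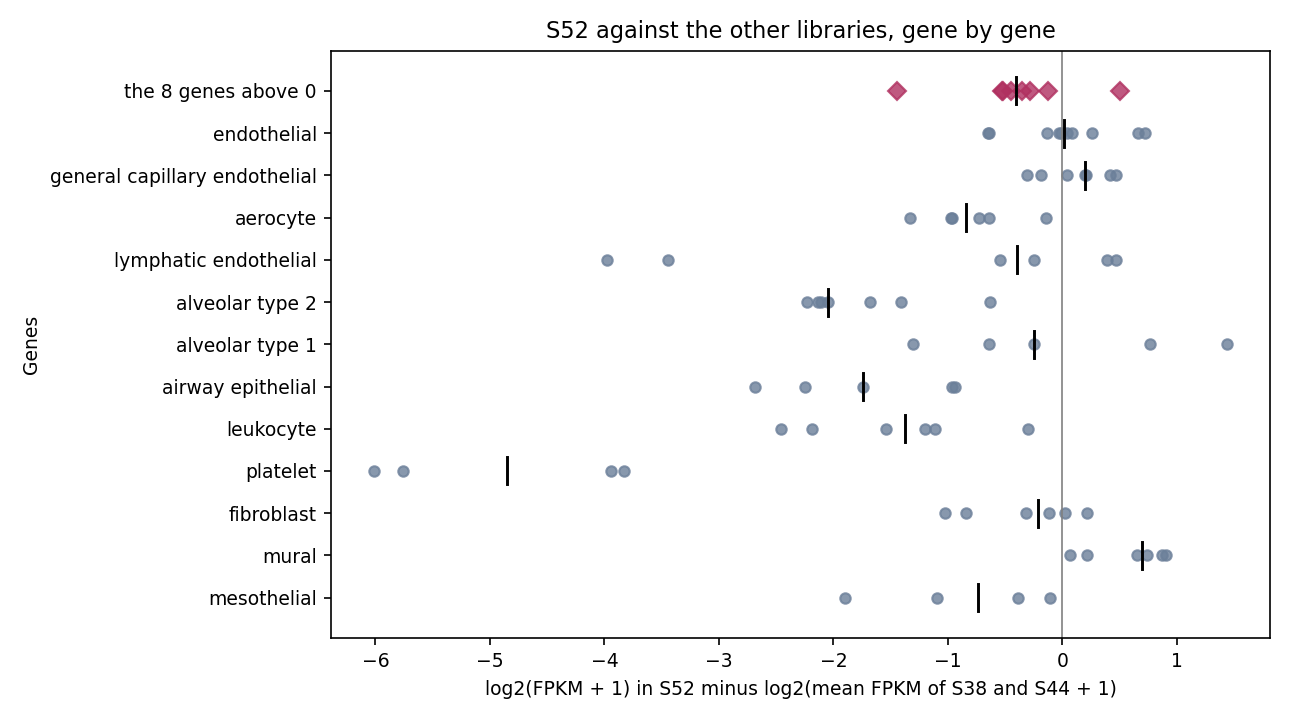
Each point is 1 gene, placed by log2(FPKM + 1) in S52 minus log2 of the mean of S38 and S44 plus 1; diamonds are the 8 genes described here that are above 0, circles are marker genes, and black bars are medians. *Meox2* lies at -1.44, *Tcf15* at 0.50 and the other 6 diamonds between -0.53 and -0.13, while the platelet median is -4.85 and the endothelial median 0.015.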

How the data were processed

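Bulk RNA-seq of sorted adult lung ECs was analysed in 3 libraries of 1 group, mapped by sample title. The table holds FPKM, as the authors deposited it, for each gene symbol (mm10). The submitters' processing notes name Trimmomatic 0.36, TopHat2 2.1.0 and Cufflinks 2.2.1 without a role, the study's methods describe STAR and HTSeq for its counts, and the annotation behind the FPKM values is not given in the sources used here. Values were used as deposited, with a threshold of 1 FPKM on the mean and a pseudocount of 1 FPKM for log2 differences, which understates changes of low genes. No count model was fitted. Differences between genes were tested by an exact sign-flip permutation over libraries, adjusted by Benjamini-Hochberg over 5.

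Fragments per library were estimated by a procedure devised once the values had been seen, from 7077 genes whose only GENCODE M21 basic transcript was between 800 and 4000 bp long. FPKM times length minus a correction (160, 160 and 180 bp) was searched for the step at which low values are whole, and 74.0% to 77.7% of them lay within 0.15 of a whole number. On counts drawn with the same transcript lengths and the same form of length correction, the known depths were recovered within 0.2%. This checks the search only, because the annotation behind the deposited values is not known. The genes and lists were chosen with earlier results of these data known. By rule all 9 genes and their families are named, with the 3 highest, defining or partner genes of other lists, and any further gene was named after its values were seen. Analyses used Python 3.11.15 with numpy 2.4.6.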

Additional observations from a re-analysis of the deposited data

How the results depend on the processing

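Of the 9 genes, 5 had a mean of 1 FPKM or more, and this number was 3 with each library rescaled to a sum of 1000000, 8 with a threshold of 0.1 FPKM, 1 with 10 FPKM and 2 with 1 FPKM required in every library. Leaving out a library gave 3 to 5, with 3 without S38. The number with a ratio above 2 between libraries was 3, and it was 1 after rescaling to a sum of 1000000, 5 with no filter on low values, and 1 to 3 when a library was left out, with 1 without S38 and 1 without S52. That rescaling multiplied S38, S44 and S52 by 0.867, 0.624 and 0.704. Rescaling to the endothelial median left both numbers as they were. The shares of all genes, 48.3% for the threshold and 20.1% for the ratio, were computed on the deposited values with 1 FPKM on the mean. They were not computed for these alternatives. The 5 differences between genes kept their direction under each rescaling, pseudocount and left-out library tried, though no test here can pass a threshold of 0.05 with 3 libraries. The means of *Meox1* and *Prdm1* moved by more than 1 SD after rescaling to a sum of 1000000, to 12.6 and 5.01 FPKM. When a library was left out the mean of *Meox2* ran from 1.28 to 2.38 FPKM, that of *Irx3* from 0.386 to 0.846 FPKM and that of *Irx5* from 0.154 to 0.441 FPKM. The estimated fragments of *Meox2* and *Tcf15* stayed within their intervals with length corrections of 100 and 200 bp, alternatives that were added after the data were seen. Low fragment numbers limit *Tcf15*, at 17 to 36 per library, and 3 fragments set the limit for *Nkx2-3*.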

Other observations

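Lists not used above gave the following values in S38, S44 and S52. The 7 arterial genes summed to 286, 327 and 364 FPKM and had 4 genes highest in S52, the 5 venous genes summed to 410, 450 and 305 FPKM, and the 5 alveolar type 1 genes to 360, 379 and 280 FPKM with 2 lowest and 2 highest in S52. The 9 dissociation stress genes summed to 3325, 4144 and 4866 FPKM, but only 3 of the 9 were highest in S52 and their medians were 271, 384 and 363 FPKM. Among other homeobox genes, *Lhx6*, known from migrating interneurons, was at 1.60, 3.37 and 4.34 FPKM, and *Nkx6-2*, known from the nervous system, was at 5.35, 5.79 and 4.45 FPKM, above *Meox2* and the Iroquois genes in each library. *Lhx6* and *Nkx6-2* were chosen after their values were seen.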
